A study of Homo sapiens with 2 samples.

Results

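NEAT1 and MALAT1 are neighbouring genes of long RNAs that stay in the nucleus. They were examined in a map of Flag-tagged Evi1Δ324 in the established human cell line SKOV-3, which comes from an ovarian carcinoma. The 12 peaks of the deposited list whose midpoint lay on chromosome 11 between 64.9 and 65.1 Mb (hg18) were taken as members, out of 6943 peaks in all. Another 30 peaks lay in the rest of the band 11q13.1, a Giemsa-negative band that runs from 63.1 to 67.1 Mb. The window had been chosen from where peaks lie in this same list, so the number and spacing of its peaks are given as a description, with no test.

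The cells carried a plasmid with Flag-Evi1Δ324 under a CMV promoter, introduced 3 days before harvest, and were fixed for 10 minutes in formaldehyde at 1%. Chromatin sheared to 200 to 500 bp was precipitated with the Flag M2 antibody, and library fragments of 200 to 300 bp were sequenced. The series holds 1 ChIP library and 1 input library from the same transfected cells, with no replicates, and the input was not analysed here. No library from cells without the construct was analysed here. Peaks bound by the tagged protein therefore cannot be told apart from places the Flag antibody recovers without it. The protein came from a transfected plasmid, so the peaks come from 1 ChIP library of transfected cells and not from EVI1 of an unaltered cell. For each peak the list gives a position and 2 unlabelled values, read from the numbers themselves as a fold over a background and as a count of tags, the sequenced fragment ends behind the peak. The list holds 76115 tags in peaks, and the depth of the library is not known from it.

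EVI1, encoded in the MECOM locus, is a transcription factor with 2 groups of zinc fingers that bind DNA, and the Δ324 splice form lacks part of the N-terminal group. NEAT1 RNA is the scaffold of paraspeckles, nuclear bodies that hold RNA-binding proteins such as SFPQ and NONO, and its long isoform is the one needed to build them. MALAT1 RNA gathers in nuclear speckles, next to splicing factors, and the end of its primary transcript is cut off to give the small tRNA-like mascRNA. Both RNAs are abundant in many carcinoma lines. In the RefSeq gene order of GRCh38.p14, which was used for names and neighbours only, NEAT1 follows TIGD3, FRMD8 and SLC25A45 and is followed by MIR612, a microRNA gene, the pseudogene FAUP4 and the noncoding ENEMAL. MALAT1 follows FAUP4, ENEMAL and LINC02736, and after its start come the antisense gene TALAM1, MASCRNA and the pseudogene SNRPGP19. Peaks carry no strand, so MALAT1 and its antisense partner TALAM1 cannot be told apart here.

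On hg18 the genes were placed only by rounded bounds, about 64.95 to 64.97 Mb for NEAT1 and about 65.02 to 65.03 Mb for MALAT1. The bounds are rounded to 10 kb, so positions within a gene, such as a promoter, exon or transcript end, could not be assigned. NEAT1 has no entry in the RefSeq promoter table, so its promoter was neither shown nor searched. MALAT1, whose rounded interval held 6 of the 12 peaks, has 2 annotated start sites there, 1307 bp apart. Their sequences are shown because they are the parts of the locus where transcription begins. Each runs from 250 bases before the start to 50 after it, and the capitals mark the transcribed part. The coordinates are those of GRCh38.p14 on the plus strand (chr11:65497488-65497787 and chr11:65498795-65499094) and cannot be set against the hg18 peak positions.
MALAT1 upstream start: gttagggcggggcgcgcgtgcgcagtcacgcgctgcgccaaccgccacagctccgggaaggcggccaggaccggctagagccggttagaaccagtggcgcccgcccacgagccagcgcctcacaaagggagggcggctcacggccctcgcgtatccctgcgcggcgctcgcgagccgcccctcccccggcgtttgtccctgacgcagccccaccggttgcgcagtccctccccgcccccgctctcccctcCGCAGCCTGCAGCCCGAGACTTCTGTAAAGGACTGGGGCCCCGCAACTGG
MALAT1 downstream start: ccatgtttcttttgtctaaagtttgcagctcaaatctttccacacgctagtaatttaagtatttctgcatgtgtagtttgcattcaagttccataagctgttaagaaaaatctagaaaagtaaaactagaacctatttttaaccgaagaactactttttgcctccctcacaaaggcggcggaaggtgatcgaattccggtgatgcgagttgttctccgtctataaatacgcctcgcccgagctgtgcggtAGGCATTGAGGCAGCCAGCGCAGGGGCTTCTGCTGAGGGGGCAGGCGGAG
The upstream sequence was rich in G and C, at 73.7%, with 37 CpG dinucleotides, against a median of 58.7% and 14 over all 35116 promoters of the table. The downstream sequence was at 46% with 14. Both were searched on both strands for GATAAG, the core of the site known for the N-terminal zinc fingers, and for TGACTCA, the site of the AP-1 factors FOS and JUN, as well as its looser form TGANTCA, which includes every TGACTCA. None of the 3 motifs occurred in either sequence. Over all promoters 6.36% held GATAAG, 4.95% TGACTCA and 7.71% TGANTCA, so a window of this length without a match is the usual case. The mapped Δ324 form lacks part of the N-terminal finger group, so nothing about its binding is read from GATAAG. No site of the other group of zinc fingers was searched. Of the peaks themselves no sequence is shown, since no genome of build hg18 was used.

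The peaks fell into 4 places: a single peak at the edge of the NEAT1 interval, a single peak before MALAT1, a group of 9 at MALAT1 and a single peak beyond it. The MALAT1 group spanned 8.91 kb (chr11:65023574-65032484) and held 68 of the 96 tags of the window. With 12 peaks in 200 kb, the window had 6 peaks per 100 kb, against 0.789 in the other 3.8 Mb of 11q13.1 (30 peaks), a ratio of 7.60. It took up 5% of the band and held 28.6% of its peaks and 31.3% of its tags in peaks. Merging of peaks separated by 1 kb or less gave a ratio of 4.07. Merging up to 10 kb gave 2.28, where the window had 3 peaks.

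**Figure D1:**
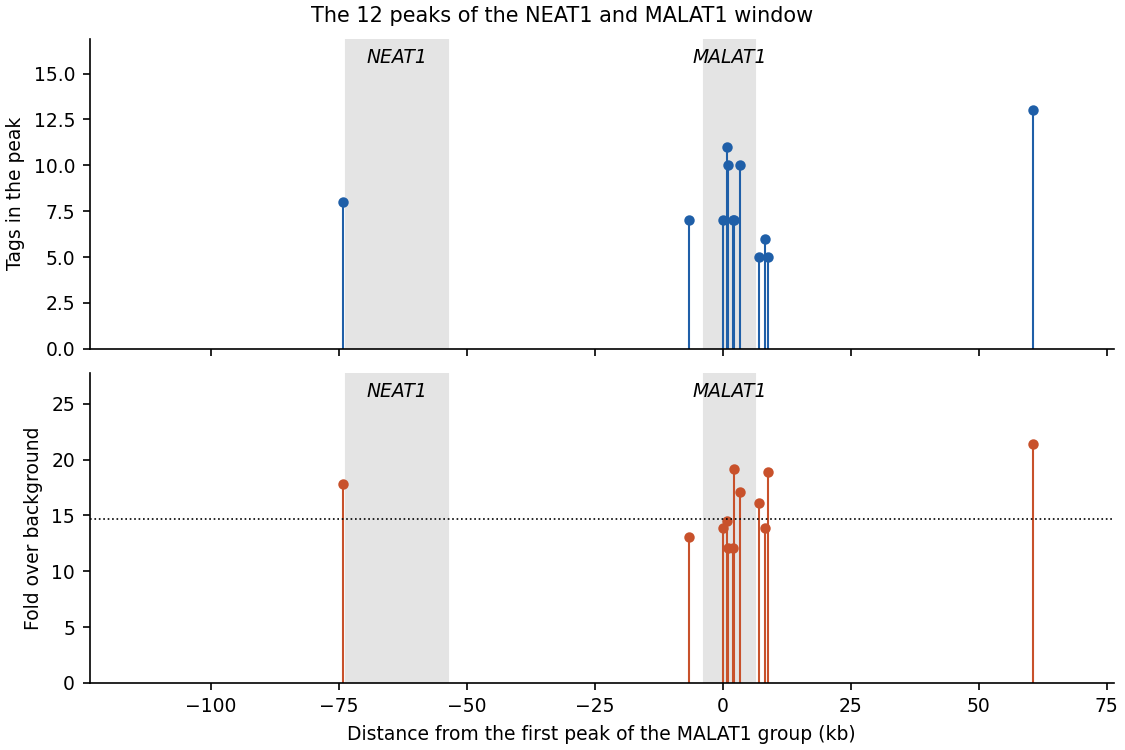
Tags (upper panel) and fold over background (lower panel) of the 12 peaks against the distance in kb from the midpoint of the first peak of the MALAT1 group; each stem is 1 peak, grey bands are the rounded gene intervals and the dotted line is the list's median fold of 14.7. A single peak stands at the NEAT1 edge, 9 stand together at MALAT1, and the peak with the most tags (13) stands alone to the right.

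At NEAT1 the list had a single peak (chr11:64949331-64949459), 129 bp wide, with a fold of 17.8 and 8 tags. Its midpoint lay 0.606 kb before the lower bound of the interval, which is less than the rounding of that bound. Whether it lies before the gene or inside it can therefore not be told apart. Of the list, 85.9% of peaks had fewer tags and 65.3% a lower fold. By midpoint, 0 peaks fell inside the rounded NEAT1 interval, and 1 did when the interval was extended by 2 kb on each side. The list shows only places with at least 5 tags, so the rest of NEAT1, its MIR612 end included, had no called peak, which sets no level for the signal there. The stretch before this peak was empty for 156 kb and the one after it for 67.6 kb. By midpoint in the rounded intervals, NEAT1 had 0 peaks and MALAT1 6 in this library, and with 2 kb added on each side they had 1 and 8. That difference has no replicate to be set against.

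The peak before MALAT1 (chr11:65017024-65017172) was 149 bp wide, with a fold of 13.09 and 7 tags. It lay 2.90 kb before the rounded MALAT1 interval and 6.40 kb before the first peak of the group. Its fold was below the list median of 14.7, and 20.6% of the list was lower still.

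The MALAT1 group opened with a peak at chr11:65023574-65023723, 150 bp wide, with a fold of 13.8 and 7 tags. After a gap of 616 bp came the widest peak of the window (chr11:65024340-65024575), with 236 bp, a fold of 14.5 and 11 tags. Only 32 bp further began a peak of 144 bp (chr11:65024608-65024751), with a fold of 12.1 and 10 tags. These 3 peaks lie within little more than a kilobase, in the rounded MALAT1 interval, and none of them exceeded the median fold of the list.

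A second cluster followed 823 bp later. Its first peak (chr11:65025575-65025684) was 110 bp wide, with a fold of 12.1 and 7 tags. The next (chr11:65025747-65025861) began 62 bp further on and was 115 bp wide, with a fold of 19.1 and 7 tags. The last peak inside the rounded interval (chr11:65027001-65027178) had 178 bp, a fold of 17.1 and 10 tags. With equal tags and nearly equal width, the pair of neighbours at 12.1 and 19.1 had the lowest fold of the group, shared with 1 other peak, and the highest.

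A stretch of 3445 bp without a peak then separated the first 6 peaks from the last 3, which lay 0.688 to 2.44 kb beyond the rounded upper bound of MALAT1. The first of these (chr11:65030624-65030752) was 129 bp wide, with a fold of 16.1 and 5 tags. The next (chr11:65031751-65031869) was 119 bp wide, with a fold of 13.8 and 6 tags. The third (chr11:65032401-65032484) was the narrowest of the window at 84 bp, with a fold of 18.9 and 5 tags. The first 6 peaks had 7 to 11 tags each and the last 3 had 5 or 6. At least 7 tags were behind 21.0% of the whole list and 26.7% (8 of 30) of the rest of the band. The folds of both sets overlapped, at 12.1 to 19.1 against 13.8 to 18.9. Since the end of MALAT1 was known only to the nearest 10 kb, the last 3 peaks cannot be placed in the gene, at the mascRNA end or after it. The split into 6 and 3 was made after the positions were seen, so nothing is read from the tag counts of both sets.

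**Figure D2:**
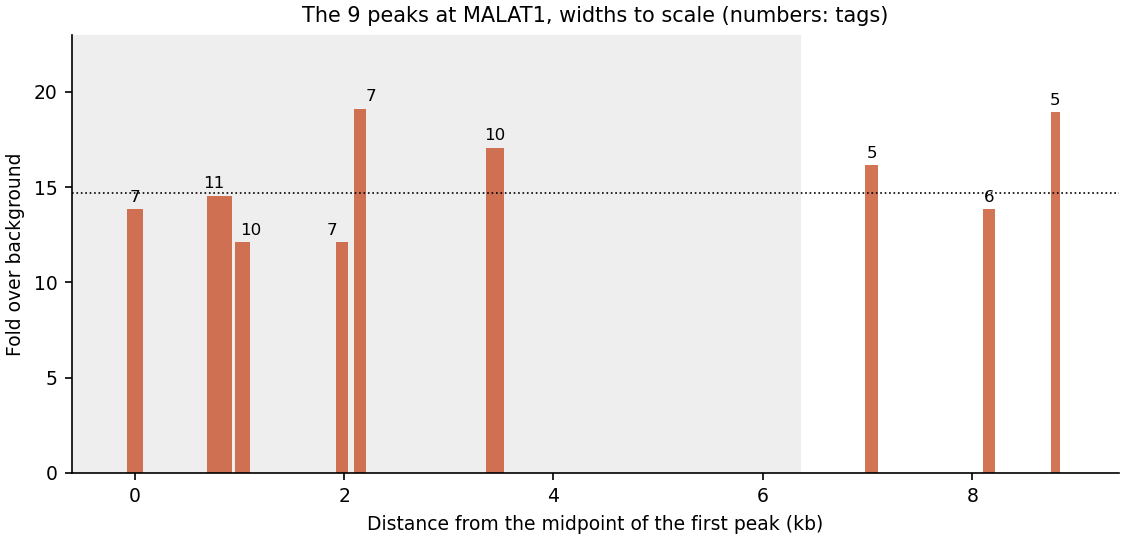
The 9 peaks of the MALAT1 group, with bar width giving peak width to scale on the axis of distance (kb) and bar height giving fold over background; the number above each bar is its tags, grey is the part inside the rounded MALAT1 interval and the dotted line is the list's median fold of 14.7. The first 6 bars carry 7 to 11 tags and the last 3, after a stretch of 3445 bp, carry 5 or 6.

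The peak beyond MALAT1 (chr11:65084203-65084435) was 233 bp wide and had the highest fold of the window, 21.4, and the most tags, 13. It lay 54.3 kb after the rounded interval, 51.7 kb from the nearest member, and was not assigned to a gene. Of the list, 94.5% of peaks had fewer tags and 90.7% a lower fold. It was the only member with a fold above the 90th percentile of the list (20.8), which 9.88% of all peaks exceeded.

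The edges of the window fell in empty sequence. The last peak before it (chr11:64792885-64793006) had a fold of 14.5 and 5 tags, and the one before that (chr11:64676845-64676957) 17.9 and 5. The first peak after it (chr11:65147592-65147717) had a fold of 19.6 and 5 tags and lay 63.2 kb from the last member, and the next (chr11:65412649-65412828) had 16.1 and 7. The members at the edges, with 8 tags on the NEAT1 side and 13 on the other, had more tags than any of these 4, and counting by any overlap with the window also gave 12 peaks.

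The members rested on few tags, though on more than most peaks. Their tags ran from 5 to 13 with a median of 7, against a median of 5 in the rest of 11q13.1 (5 to 29) and in the whole list. At least 6 tags were behind 10 of 12 members (83.3%), where the share was 40.5% over the whole list and 43.3% (13 of 30) in the rest of the band. At least 10 tags were behind 4 of 12, against 9.09% of the list and 4 of 30 in the rest of the band. Tags, fold and width come from the same list as the positions that chose the window, so these shares were not tested. Among peaks with at least 6 tags, the window had 14.6 times the density of the rest of the band. In that subset the median of the members' tags was 0.938 times that of the rest.

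Fold separated the members less. It ran from 12.1 to 21.4 with a median of 15.3, against 16.1 in the rest of 11q13.1 (9.08 to 53.3) and 14.7 in the list. Above the list median were 6 of 12 members (50.0%), as against 49.7% of the list and 53.3% of the rest of the band. Some folds equal the median, and below it were 6 of 12 members (50.0%), against 37.5% of the list and 40.0% of the rest of the band. Width had a median of 136 bp (84 to 236), against 128 bp in the rest of the band and 126 bp in the list, and 8 of 12 members were wider than the list median, a share of 49.4% over the list and 17 of 30 in the rest of the band. Among peaks with at least 6 tags the order turned, with a median width of the members 0.904 times that of the rest of the band. Tags per kb of peak, which takes width into account, had a median of 56.0 in the members and 43.7 in the rest of the band. Here 11 of 12 members were above the list median of 44.6, against 50.0% of the list and 14 of 30 in the rest of the band.

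**Figure D3:**
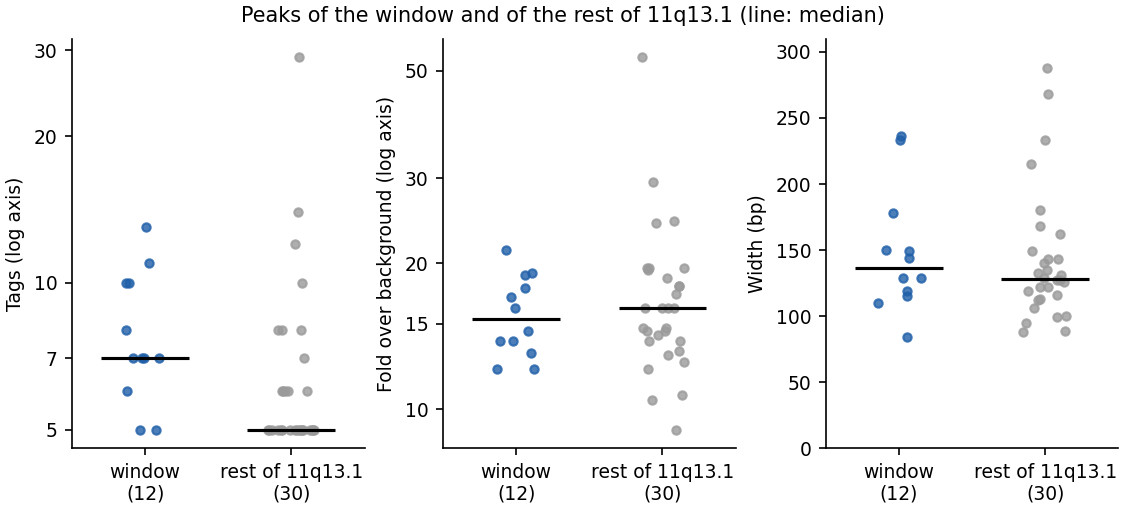
Tags, fold over background (both on log axes) and width in bp of the 12 peaks of the window and the 30 of the rest of 11q13.1; each point is 1 peak, spread sideways for sight only, and lines are medians. The window has the higher median of tags (7 against 5), while medians of fold (15.3 against 16.1) and width (136 against 128 bp) are near each other. Folds reach 21.4 in the window and 53.3 in the rest.

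Some folds recurred as multiples of a single number. In the list, 2099 folds (30.2%) were whole multiples of 4.90 (taken as whole when within 0.012), which may be the lowest background the authors' method assigned, a reading that was not tested. None of the 12 members had such a fold, against 7 of 30 in the rest of the band. Folds on the step were fewer among peaks with more tags, at 38.1% with 5 tags and 17.1% with 7 to 13, the class of 9 of the members. A background index, tags per kb divided by fold, was above the list median of 2.81 in 10 of 12 members, a share of 49.7% over the list, and in 16 of 30 peaks of the rest of the band. Over the list its median also rose with tags, from 2.72 with 5 tags to 3.00 with 6 and 3.09 with 7 to 13. The 9 members with 7 to 13 tags had a median index of 3.37. The highest index values of the window were at the MALAT1 peaks of lowest fold, 5.73 and 5.25, above those of 96.6% and 95.6% of the list. The peak at the NEAT1 edge had 3.48, and the peak beyond MALAT1, of highest fold, had 2.61. The index divides by the fold, so peaks of low fold have a high index in part by construction.

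Within 10 kb of 9 of 12 members came the next peak (75%), against 9.78% of the list and 5 of 30 peaks of the rest of the band. At 2 kb it was 7 of 12, against 6.90% of the list. Spacing is what the window was chosen on, and nothing is read from these shares. Midpoints of neighbouring members were 174 bp to 67.7 kb apart, with a median of 1.12 kb. In the rest of 11q13.1, 18 of 38 windows of 100 kb held no peak, and no window held more than 3. The densest were chr11:64100001-64200000 and chr11:66800001-66900000 with 3 peaks each, and chr11:65900001-66000000 was the one with the most tags among 6 windows with 2. The MALAT1 side of the window, chr11:65000001-65100000, held 11, and the NEAT1 side 1.

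The strongest peak of the rest of the band (chr11:65945731-65945998) had a fold of 53.3 and 29 tags, more than any member on either measure. After it the highest folds were 29.4 with 8 tags (chr11:66898367-66898528) and 24.5 with 5 (chr11:64327669-64327756). Next in tags were peaks with 14 tags and a fold of 19.4 (chr11:64118855-64119142) and 12 tags and a fold of 10.5 (chr11:63794142-63794356). The dense MALAT1 group was thus not where the strongest single peak of the band lay.

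Groups of peaks with gaps of at most 5 kb were compared over the whole list. Of 368 groups with 2 or more peaks, 1 had more peaks than the MALAT1 group and 1 had as many. With gaps of at most 2 kb the MALAT1 group counted 6 peaks, and 5 groups had more and 3 as many. With 1 kb it counted 5 peaks, and 7 groups had more and 5 as many. With 10 kb it took in the peak before MALAT1, counted 10 and was second to 1 group. At 1 kb there were 279 groups of 2 or more peaks, at 2 kb 307 and at 10 kb 451. The window was chosen on the spacing of its peaks, so nothing is read from these ranks.

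The dense groups differed in build. The group of 13 peaks in 2p11.2 (chr2:87440841-87447197) spanned 6.36 kb and the group of 9 in 12q24.31 (chr12:123517320-123519470) only 2.15 kb. The group of 8 in 19p13.3 (chr19:344517-347003) spanned 2.49 kb. Peaks covered 14.2% of the span at MALAT1, 40.6% in 2p11.2, 68.8% in 12q24.31 and 89.6% in 19p13.3. The median gap was 719 bp at MALAT1, 350 bp in 2p11.2, 48 bp in 12q24.31 and 24 bp in 19p13.3. At MALAT1 the peaks were thus spread as separate peaks over nearly 9 kb, where those of 12q24.31 and 19p13.3 lay almost end to end. The length and covered share at MALAT1 depend on the limit of 5 kb, which bridges a stretch of 3445 bp without a peak. With gaps of at most 2 kb only its first 6 peaks remain, and these cover 25.9% of their span, still less than in 2p11.2. The largest gap in 2p11.2 was 687 bp, so that group keeps its 6.36 kb and is then longer than the MALAT1 group.

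Fold differed between these groups too. The median was 14.5 at MALAT1 (12.1 to 19.1) and 13.09 in 2p11.2 (10.8 to 18.9), against 24.5 in 12q24.31 (14.3 to 29.4) and 24.0 in 19p13.3 (14.7 to 44.1). Median tags were 7 at MALAT1 and in 12q24.31, 10.0 in 2p11.2 and 11.5 in 19p13.3. Folds on this step numbered 0 of 9 at MALAT1 and 0 of 13 in 2p11.2, against 7 of 9 in 12q24.31 and 5 of 8 in 19p13.3. Groups of 7 peaks also lay in 2p11.1, a centromeric band, and at another place in 19p13.3. Their median folds were 12.1 and 24.5, with 0 of 7 and 4 of 7 folds on this step. In fold and in folds on this step the MALAT1 group lay nearer to the groups in 2p11.2 and 2p11.1 than to the others. In median tags it was equal to the group in 12q24.31. Peaks of 1 group share chromatin and library and are not replicates, so the differences were not tested.

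**Figure D4:**
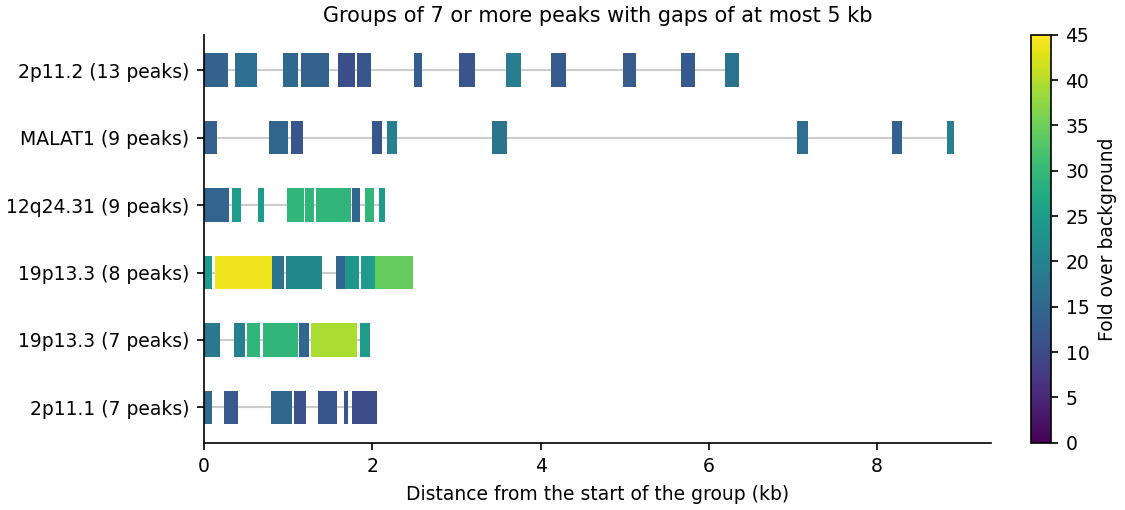
Positions of peaks (boxes, to scale) in the 6 groups of 7 or more peaks with gaps of at most 5 kb, against the distance in kb from the start of each group, coloured by fold over background. At this limit the MALAT1 group is the longest, at 8.91 kb, which includes a stretch of 3445 bp without a peak. Its 9 boxes cover little of that length and are of low fold. The boxes of 12q24.31 and 19p13.3 lie close together and reach higher folds.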

How the data were processed

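The deposited peak list of the 1 ChIP library was analysed. Per the labels and the submitters' processing notes its build is hg18, and no aligner, peak caller or threshold was given in the sources used. The file has no header. Its first value, as deposited by the authors, was read as a ratio (fold) and its second as a tag count, both from the values themselves. Starts were read as counted from 0 and are printed from 1. No test was run, since there are no replicates and the members, lists and comparisons were chosen with earlier results of these data known. Described were all members, the 2 nearest peaks on each side and the 3 highest peaks of 11q13.1 by fold and by tags. Also described were the 3 densest other windows of 100 kb in 11q13.1 and 3 dense places elsewhere in the list, picked outside pericentromeric bands. These were given as groups of peaks with gaps of at most 5 kb, a distance chosen after seeing the data. Every group of 7 or more peaks at that distance was included, without the filter on pericentromeric bands, so 2p11.1 is among them. Bands came from circlize 0.4.16 (R 4.3.3). Computations used Python 3.11.15, numpy 2.4.6, pandas 2.3.3 and scipy 1.17.1. Grouping and merging were tested on simulated data. Paraspeckle and speckle protein genes, planned for an hg18 annotation, were not analysed here. The depth of the library is unknown. Alternatives were merging of peaks, minimums of fold and tags, wider gene intervals and other comparison sets.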

Additional observations from a re-analysis of the deposited data

How the results depend on the processing

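Over 8 results and 40 alternatives, 26 values stayed within 1.5 times of the value given above, or for the share of members with a near neighbour within its exact 95% interval, and 14 did not. Merging peaks at most 1 kb apart left 6 peaks in the window, 2 of them in the MALAT1 interval, and a density ratio of 4.07. The members' median width was then 1.61 times and their median tags 2.30 times those of the rest of the band. Merging within 10 kb left 3 peaks in the window, 1 in the MALAT1 interval and a ratio of 2.28. Fewer peaks, and wider ones with more tags, follow from merging by construction, since the tags of merged peaks were summed. Among folds above the list median the window had 6 peaks and the MALAT1 interval 2. With at least 6 tags the density ratio was 14.6, on 10 and 13 peaks. The NEAT1 interval held 1 peak when extended by 2 kb or by 5 kb, and the MALAT1 interval 10 by 5 kb, as wider intervals can only add peaks. With that minimum of 6 tags the members' median width was 0.904 times and their median tags 0.938 times those of the rest. Both fell below 1, from 1.07 and 1.40, yet both count among the 26 that stayed. The median fold of the members stayed at 0.878 to 1.14 times that of the comparison. It was above 1 only after merging within 1 kb, where each merged peak was given the highest of its folds. No paired analysis was possible because the series has 1 ChIP and 1 input library and no result comes from a test. Few tags per peak and bounds known to 10 kb limit every value here.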
